A study of Mus musculus with 6 samples.

Results

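The small leucine-rich proteoglycans encoded by 8 genes in 2 clusters were examined for open chromatin in the developing mouse palate. The cluster on chromosome 10 holds Dcn, Lum, Kera and Epyc, and the cluster on chromosome 13 holds Ecm2, Aspn, Omd and Ogn. These are 8 of 21911 protein-coding genes. They were chosen by their place in the clusters and selected on measured values of these libraries, their peak counts being known and Epyc having been seen with fewer peaks in epithelium, so every difference between the tissues at them is a description, and counts from the genome-wide fit are printed for them only beside the share over all genes. Open DNA was mapped by ATAC-seq, an assay based on adapter insertion by the Tn5 transposase, in C57BL/6 embryos at E14.5 (embryonic day). Palatal shelves were treated with trypsin and the epithelium was peeled off under a microscope, which gave 3 epithelium libraries. The tissue that remained, described as largely mesenchymal cells, gave the 3 mesenchyme libraries, and each library used about 20000 cells. The sources conflict on what went into a replicate: the series design speaks of 3 embryos, the treatment protocol of 5 palatal shelves and the study's methods of another number. In each account a library pools several embryos or shelves, and the other cell types that the remaining tissue still held were not sorted out.

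Small leucine-rich proteoglycans are secreted proteins built from leucine-rich repeats, most of them carrying sugar chains, that sit on collagen fibrils and hold growth factors in the extracellular matrix. They are known from connective tissue: they space and shape collagen fibrils in skin, tendon, cornea, cartilage and bone, and Dcn and Aspn proteins bind members of the TGF-β family. Mesenchyme and its derivatives are their usual source, whereas epithelium is not, and their genes sit close together because the family grew by duplication.

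Each deposited list gives only the positions of the peaks of 1 library, so the measure here is how many peaks lie near a gene and in which libraries. A peak was given to 1 gene, the one with the nearest start site, if its midpoint was in that gene's body or within 100 kb of the start. Epithelium libraries held 270003 to 349322 peaks and mesenchyme libraries 295141 to 341741, and their median widths ran from 331 to 344 bp. The labelled tissues were checked with marker genes. Of 10 epithelial genes, 2 (Trp63 and Perp) had more peaks in epithelium by limma at an adjusted p under 0.05 (Benjamini-Hochberg), and the list held 18 regions open in all 3 epithelium libraries and no mesenchyme library, with 2 of the opposite kind. Of 10 palate mesenchyme genes none passed that test, and that list held 1 region open only in epithelium and 18 open only in mesenchyme. Regions found in at least 2 libraries numbered 183 in the epithelial list and 282 in the palate mesenchyme list. Over all such regions, 2.98% were open only in epithelium and 2.20% only in mesenchyme. At an unadjusted p under 0.05 by limma, 4 epithelial genes had more peaks in epithelium and 2 palate mesenchyme genes had fewer. At that threshold no gene of these lists went the other way, and 6.27% of all genes were higher and 6.27% lower in epithelium. The epithelial list had a median log2 difference, epithelium minus mesenchyme, of 0.33, with 8 genes positive and 2 negative. For the palate mesenchyme list it was -0.07, with 4 positive and 6 negative. The median log2 difference, epithelium minus mesenchyme, was -0.07 over 10 cartilage genes, -0.18 over 9 bone genes, 0.14 over 6 tendon and fibroblast genes, -0.07 over 6 endothelial genes, -0.14 over 6 immune genes and -0.04 over 5 muscle genes, and none of these genes passed the adjusted test. At an unadjusted p under 0.05, the bone list had 0 higher and 1 lower, the tendon list 2 higher, the endothelial list 1 higher and 1 lower, the immune list 1 lower, and the cartilage and muscle lists none. The part of these cell types in the values at the 8 genes was not tested. In such bulk samples, fewer cells with an open region and a region less open in each cell cannot be told apart.

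The stretches that separated the tissues are shown first. Among the regions given to the 8 genes, 1 had a peak in all 3 epithelium libraries and in no mesenchyme library, and 3 had the opposite pattern, kinds that made up 2.98% and 2.20% of all regions found in at least 2 libraries. For each, the printed stretch is the part that all 3 peaks shared, or its central 300 bases where it was longer, read from the GRCm38.p6 genome (the assembly behind mm10) on the plus strand. The fifth sequence is the RefSeq promoter of Aspn before its start. Peaks covered only its end, from base 49544323 in mesenchyme 1 and from base 49544316 in mesenchyme 3. Mesenchyme 2 and the epithelium libraries had no peak over it. Lower case is plain sequence, and capitals mark matches on either strand to the short motifs searched, named after the sequences.
Dcn, epithelium-only, chr10:97423077-97423275: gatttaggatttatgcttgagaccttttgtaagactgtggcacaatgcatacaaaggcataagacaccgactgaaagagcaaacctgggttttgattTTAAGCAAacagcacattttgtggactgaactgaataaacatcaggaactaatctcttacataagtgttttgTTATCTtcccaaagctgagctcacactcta
Lum, mesenchyme-only, chr10:97547296-97547494: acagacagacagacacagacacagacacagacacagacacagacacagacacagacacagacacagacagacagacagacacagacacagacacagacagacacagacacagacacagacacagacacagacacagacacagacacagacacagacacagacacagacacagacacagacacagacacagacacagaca
Lum, mesenchyme-only, chr10:97555823-97556122: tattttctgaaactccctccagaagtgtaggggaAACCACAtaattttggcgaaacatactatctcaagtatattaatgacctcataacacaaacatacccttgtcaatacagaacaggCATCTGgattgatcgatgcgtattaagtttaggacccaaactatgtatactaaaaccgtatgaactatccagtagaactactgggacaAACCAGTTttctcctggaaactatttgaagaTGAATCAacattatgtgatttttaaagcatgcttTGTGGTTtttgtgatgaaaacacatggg
Epyc, mesenchyme-only, chr10:97650397-97650696: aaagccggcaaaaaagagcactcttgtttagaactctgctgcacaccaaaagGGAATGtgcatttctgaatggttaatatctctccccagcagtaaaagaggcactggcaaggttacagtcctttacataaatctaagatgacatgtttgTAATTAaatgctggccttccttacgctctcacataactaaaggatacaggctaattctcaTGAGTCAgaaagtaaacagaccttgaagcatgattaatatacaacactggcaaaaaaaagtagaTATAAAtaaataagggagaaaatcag
Aspn, promoter, chr13:49544193-49544442: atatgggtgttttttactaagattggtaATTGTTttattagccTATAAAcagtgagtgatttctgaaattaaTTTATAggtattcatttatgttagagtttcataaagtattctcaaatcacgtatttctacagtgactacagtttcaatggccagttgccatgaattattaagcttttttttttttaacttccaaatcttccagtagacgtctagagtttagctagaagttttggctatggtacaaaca
The first Lum stretch is a short repeat: 100% of its 199 bases lay in matches to CAGACA or a rotation of it, overlaps allowed. It held no CpG and no motif match. The other Lum stretch held TGTGGTT (the RUNX motif) at both ends, and between them CATCTG (an E-box), AACCAGTT (a GRHL motif) and TGANTCA (AP-1). The Epyc stretch held, from left to right, the TEAD motif GGAATG, the motif shared by many homeobox factors, TAATTA, the AP-1 motif again, and the TATA box, TATAAA. The Dcn stretch held the C/EBP motif TTGCNNAA and, further on, the GATA motif AGATAA. The Aspn promoter held AACAAT (SOX) and 2 matches to TATAAA, all of them before the part that peaks covered.

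Those motifs are short and common. The shares over regions come from windows of 200 bp, whereas the printed stretches were searched over up to 300 bases. The CATCTG of the Lum stretch and the GGAATG and TATAAA of the Epyc stretch were not within the central 200 bp of their regions. In the central 200 bp of all 342690 regions found in at least 2 libraries, a match was present in 4.56% for RUNX, 17.4% for CATCTG, 0.505% for AACCAGTT, 6.18% for AP-1, 11.5% for TEAD, 2.14% for TAATTA, 6.36% for C/EBP and 6.13% for AGATAA. Among all 32851 RefSeq promoter windows of 300 bp, which reach 50 bp past the start, 10.7% held AACAAT and 13.6% held TATAAA. Of the 30 regions of the 8 genes found in at least 2 libraries, 4 (13.3%) held AP-1, 4 (13.3%) C/EBP, 3 (10.0%) AGATAA, 2 (6.67%) RUNX and 2 (6.67%) TEAD. The E-box CAGCTG was in 5 of the 30 (16.7%, against 14.55% of all regions), CATCTG in 4 (13.3%), and TTGGCA, the NF1 motif, in 3 (10.0%, against 11.3%). TGACAG, the MEIS motif, was in 1 of the 30 (3.33%), against 15.8% of all regions. TATAAA was in 3 (10.0%, against 5.89%), and AACAAT (6.33% of all regions), ACAATGG (a longer SOX motif, 2.50%), TAATTA, CCCCACCC (KLF, 5.40%) and AACCAGTT were in 1 region each. GCCNNNGGC (TFAP2, 8.0% of all regions), AACCGGTT (GRHL, 0.188%) and CCACNAGG (the core of the CTCF motif, 4.62%) matched none of the 30. ACAATGG shares letters with AACAAT, and a match to either is a match of letters only. The 30 regions had a median GC content of 47.8% in the central 200 bp, with a range from 34.0% to 63.0%, and all regions had a median of 52.5%.

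The chromosome 10 cluster spans 164 kb from the start of Dcn to the start of Epyc, in the order Dcn, Lum, Kera, Epyc, all on the plus strand, with starts 85.5, 41.8 and 37.2 kb apart. Summed over these 4 genes, the epithelium libraries had 12, 16 and 13 peaks and the mesenchyme libraries 18, 20 and 23. Every epithelium library was therefore below every mesenchyme library. Unscaled, the epithelium mean was 13.7 ± 2.08 and the mesenchyme mean 20.3 ± 2.52 (SD over 3 libraries), and scaled to the mean list length the ratio of means was 0.697. In a window that reaches 100 kb past the outer starts, and counting peaks of all genes, the density was 4.39, 6.04 and 4.66 peaks per 100 kb in epithelium and 7.41, 7.13 and 7.96 in mesenchyme. Over the whole genome it was 9.91, 12.8 and 10.9 in epithelium and 10.8, 12.5 and 11.6 in mesenchyme, so the cluster was poorer in peaks than the genome in each of the 6 libraries.

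**Figure D1:**
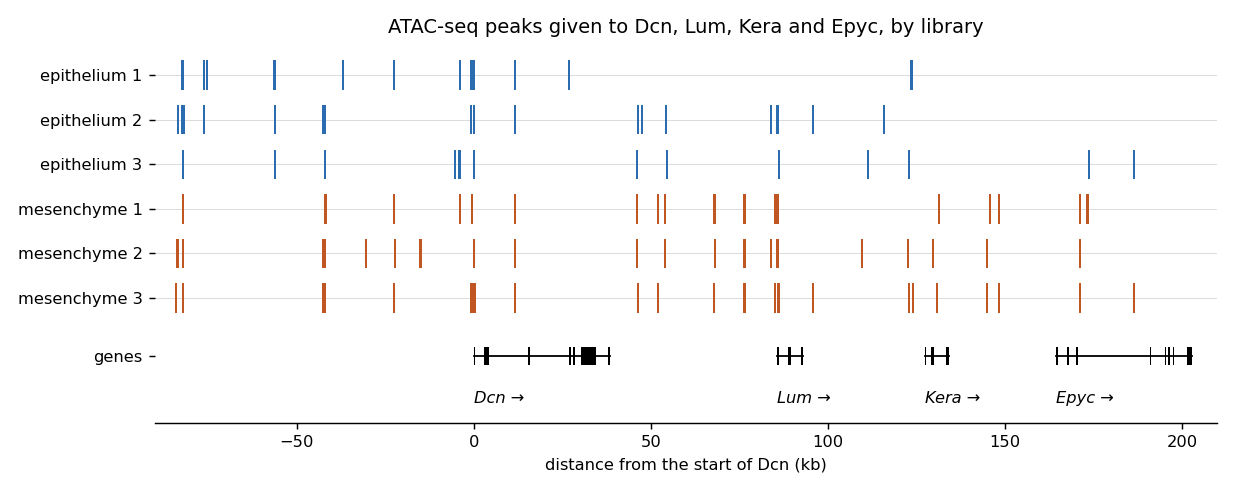
Peaks given to Dcn, Lum, Kera and Epyc, drawn against the distance from the start of Dcn in kb (x axis) for each of the 3 epithelium libraries (blue, upper rows) and 3 mesenchyme libraries (orange, lower rows); black boxes are exons and arrows point along the genes. Peaks around Dcn are spread over both tissues, while the 18, 20 and 23 mesenchyme peaks reach more evenly over Lum, Kera and Epyc than the 12, 16 and 13 epithelium peaks.

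Dcn encodes decorin, the best studied member, which binds collagen fibrils and TGF-β. The gene lies at chr10:97479609-97518143. It had 11, 9 and 6 peaks in the epithelium libraries and 6, 9 and 9 in the mesenchyme libraries. The tissues overlapped, with 8.67 ± 2.52 peaks on average in epithelium libraries and 8.0 ± 1.73 in mesenchyme libraries (SD over 3 libraries). On the log2 scale used for the fit, log2(scaled peaks + 1), the difference epithelium minus mesenchyme was 0.14 (SE 0.28), and its sign turned to -0.17 within 50 kb of the start and to -0.11 without epithelium replicate 1. Dcn had the most peaks of the 8 genes and the best covered start: a peak lay over it in 3 of 3 epithelium libraries, 851, 597 and 585 bp wide, and in 2 of 3 mesenchyme libraries, 265 and 209 bp wide. Its region open in all 6 libraries lay 82122 bp before the start, at chr10:97397026-97397949, with peaks of 846, 924 and 583 bp in epithelium and 560, 531 and 581 bp in mesenchyme. The epithelium-only region lay 56435 bp before the start, between genes, at chr10:97423018-97423331, and its peaks were 314, 199 and 236 bp wide. A region 22525 bp before the start leaned to mesenchyme, with a peak of 314 bp in epithelium 1 alone and of 499, 383 and 505 bp in mesenchyme. In the Dcn intron at chr10:97490816-97491236, epithelium 1 and 2 and all 3 mesenchyme libraries had a peak.

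Lum encodes lumican, a keratan sulfate proteoglycan needed for a clear cornea, and lies at chr10:97565128-97572703. The epithelium libraries had 0, 6 and 3 peaks and the mesenchyme libraries 7, 6 and 7. The epithelium values were spread out, with none in epithelium 1. The counts met at 6, and after scaling they ran to at most 5.349 in epithelium and from 5.467 in mesenchyme, so the gap was small. Lum averaged 3.0 ± 3.0 peaks in epithelium libraries and 6.67 ± 0.577 in mesenchyme libraries (SD over 3), and the log2 difference was -1.34 (SE 0.50). It was -0.56 without epithelium replicate 1. A region around the start, at chr10:97564943-97565934, had peaks of 743 and 336 bp in epithelium 2 and 3 and of 940, 752 and 709 bp in mesenchyme; the peak covered the start itself in 1 epithelium and 2 mesenchyme libraries. The non-repetitive mesenchyme-only region, chr10:97555644-97556446, lay 9083 bp before the start between genes, with peaks of 707, 429 and 764 bp, wider than the median peak of any library. The region of CAGACA repeats, chr10:97547118-97547672, lay 17733 bp before it, with peaks of 229, 199 and 555 bp.

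Kera encodes keratocan, the other corneal keratan sulfate proteoglycan of this cluster, and lies at chr10:97606879-97613692. It had 1, 1 and 2 peaks in epithelium and 2, 4 and 4 in mesenchyme. The counts met at 2, and after scaling they ran to at most 2.099 in epithelium and from 2.11 in mesenchyme, so the gap was small. The log2 difference was -0.83 (SE 0.38). Of 11 merged regions, 9 were seen in 1 library only, 3 of these in an epithelium and 6 in a mesenchyme library. No library had a peak over the start, and the nearest, 2129 bp after it in a coding exon, was in mesenchyme 2 alone.

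Epyc encodes epiphycan, known from growth plate cartilage, and lies at chr10:97644068-97682454. The epithelium libraries had 0, 0 and 2 peaks and the mesenchyme libraries 3, 1 and 3. The tissues overlapped, because epithelium 3 had more peaks than mesenchyme 2. Epyc averaged 0.667 ± 1.15 peaks in epithelium libraries and 2.33 ± 1.15 in mesenchyme libraries (SD over 3), with a log2 difference of -1.12 (SE 0.49). The gene's later part is nearer to the start of Ccer1, and its whole body held 0, 1 and 3 peaks in epithelium and 3, 1 and 2 in mesenchyme, so the direction in the body depended on the library. The mesenchyme-only region, chr10:97650371-97650731, lay in an intron, 6483 bp after the start, and its peaks had like widths of 342, 360 and 320 bp. The start itself carried no peak in any library.

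**Figure D2:**
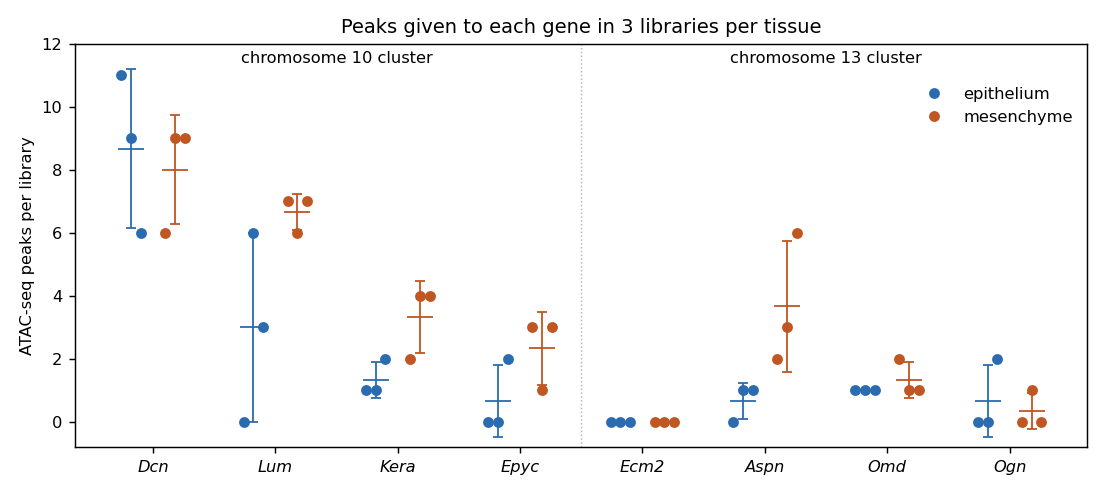
Number of ATAC-seq peaks given to each of the 8 genes (y axis) in 3 epithelium libraries (blue, left of each pair) and 3 mesenchyme libraries (orange, right); points are libraries, the long tick is the mean and the bars are ± 1 SD. Dcn has 6 to 11 peaks per library over both tissues, Lum, Kera, Epyc, Aspn and Omd have lower means and Dcn and Ogn higher means in epithelium, and Ecm2 is at 0 throughout.

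The chromosome 13 cluster spans 103 kb from the start of Ecm2 to the start of Ogn, in the order Ecm2, Aspn, Omd, Ogn on the plus strand, with starts 39.6, 38.0 and 25.6 kb apart. All 4 genes lie within the body of Cenpp, a kinetochore protein gene on the minus strand, so that their regions are annotated as introns of Cenpp as well. Summed over the 4 genes there were 1, 2 and 4 peaks in epithelium and 4, 5 and 7 in mesenchyme. The counts met at 4, and the scaled sums averaged 2.38 ± 1.61 in epithelium libraries and 5.23 ± 1.47 in mesenchyme libraries (SD over 3), a ratio of 0.455. The sums were small beside the peak density of the surrounding window, which was 4.95, 7.26 and 9.89 peaks per 100 kb in epithelium and 10.2, 10.2 and 12.2 in mesenchyme, since most peaks there were nearer to the start of another gene.

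Aspn encodes asporin, a close relative of decorin that binds TGF-β and collagen, and lies at chr13:49544443-49567565. It had 0, 1 and 1 peaks in epithelium and 2, 3 and 6 in mesenchyme. Every epithelium library was below every mesenchyme library. Aspn averaged 0.667 ± 0.577 peaks in epithelium libraries and 3.67 ± 2.08 in mesenchyme libraries (SD over 3), and the log2 difference of -1.46 (SE 0.43) was the lowest of the 8 genes. As kb covered by peaks, with 1 added to the kb, the difference was -0.69, a value on another scale than that of counts. The start carried no peak in epithelium, and in mesenchyme 1 and 3 it carried peaks of 278 and 199 bp, which cover the end of the promoter printed above. A region in the first part of the gene, chr13:49545693-49546048, 1427 bp after the start, had 1 peak of 226 bp in epithelium 3 and peaks of 314, 268 and 301 bp in mesenchyme.

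Omd encodes osteomodulin (osteoadherin), a keratan sulfate proteoglycan of bone, and had 1, 1 and 1 peaks in epithelium and 2, 1 and 1 in mesenchyme. The log2 difference was -0.17 (SE 0.40) and turned to 0.06 without mesenchyme replicate 1. Its one region found in several libraries, chr13:49581458-49581976, lay 745 bp before the start, with peaks of 519 and 270 bp in epithelium 1 and 2 and of 379, 389 and 389 bp in mesenchyme, so the region was shared by both tissues. Ogn encodes mimecan (osteoglycin), and had 0, 0 and 2 peaks in epithelium and 0, 1 and 0 in mesenchyme, each in a region seen in a single library. The mesenchyme 2 peak, chr13:49607759-49608055, covered its start. Ecm2, whose product is a matrix protein with a leucine-rich repeat part like that of decorin, had 0 peaks in all 6 libraries. Peaks around its start were nearer to the starts of other genes, and counted to the nearest start among the 8 genes alone, a rule added after seeing the data, Ecm2 had 9, 18 and 20 peaks in epithelium and 17, 20 and 23 in mesenchyme, and the tissues overlapped. Ecm2 and Ogn stayed under the minimum of a mean of 1 scaled peak and were not in the fit.

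**Figure D3:**
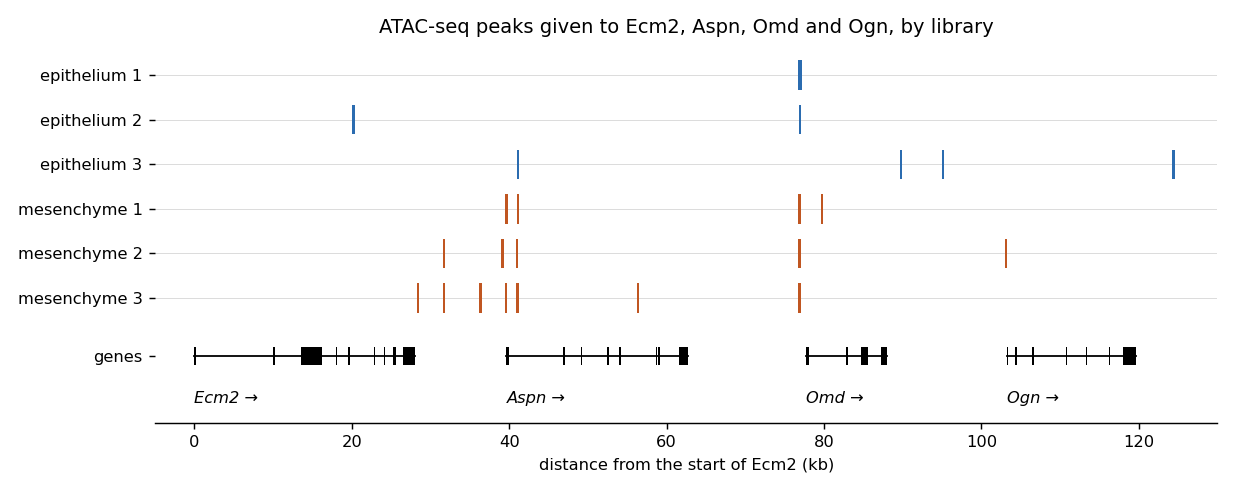
Peaks given to Ecm2, Aspn, Omd and Ogn, drawn against the distance from the start of Ecm2 in kb (x axis) for the 3 epithelium libraries (blue, upper rows) and the 3 mesenchyme libraries (orange, lower rows); black boxes are exons and arrows point along the genes. The 1 Omd region recurs in 5 of 6 libraries, and the 2, 3 and 6 mesenchyme peaks of Aspn include one just after its start in each library.

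Over the 8 genes together the epithelium libraries had 13, 18 and 17 peaks and the mesenchyme libraries 22, 25 and 30, a ratio of scaled means of 0.647. Limma, fitted over all 19875 genes with a mean of at least 1 scaled peak, called none of the 6 members that passed this minimum at an adjusted p under 0.05; over all genes it called 0.0956% lower and 0.292% higher in epithelium. At an unadjusted p under 0.05, 4 of the 6 were lower and none higher, where 6.27% of all genes were lower and 6.27% higher. Every scaled epithelium value lay below every mesenchyme value at 3 of the 6 (Lum, Kera and Aspn) and above at none, which over all genes was so for 9.16% and 7.64%. The median log2 difference of the 6 was -0.97, beside -0.01 over all genes. These counts use the contrast with which the genes were known when they were taken, and nothing is read from them.

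Merging the peaks of the 6 lists gave 59 regions at the 8 genes. Of these, 29 were seen in a single library, 13 of them in an epithelium and 16 in a mesenchyme library, and 30 in at least 2. Of the 30, 1 (3.33%) was epithelium-only, 3 (10.0%) were mesenchyme-only and 1 (3.33%) was open in all 6, where the shares over all regions were 2.98%, 2.20% and 19.1%. A further way to count them is by the number of libraries: 5 (16.7%) were found in more epithelium than mesenchyme libraries, 19 (63.3%) in more mesenchyme than epithelium libraries and 6 in equal numbers, where the shares over all regions were 24.7% and 30.0% for the first and second kind. Dcn differed from the rest in having 4 regions of each kind; Lum had 1 and 7, and Kera, Epyc, Aspn and Omd had 0 with more epithelium libraries and 2, 2, 3 and 1 with more mesenchyme libraries. The median region of the 8 genes was 394 bp wide, narrower than the median of 572 bp over all regions. The smallest peaks in each list were 199 bp wide, and the median peak of the 8 genes was 313, 285.5 and 232 bp wide in epithelium and 317.5, 297 and 243 bp in mesenchyme.

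At the edges of the 100 kb limit, the farthest region given to the chromosome 10 cluster among those found in at least 2 libraries was the one 82122 bp before Dcn, and the first one outside it, 103581 bp before Dcn, had a peak in 1 epithelium and 3 mesenchyme libraries. On the other side the last member region lay 21729 bp after the start of Epyc, found in 1 epithelium and 1 mesenchyme library, and the next belonged to Ccer1 and was open in all 6. On chromosome 13 the nearest regions outside belonged to Tes3-ps, 19440 bp before Ecm2 and found in 1 epithelium and 1 mesenchyme library, and to Cenpp, 44805 bp after Ogn and open in all 6.

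The start sites were sorted by the libraries that had a peak over them. Over all 21911 genes, 59.6% of starts carried a peak in all 6 libraries and 22.9% in none; of the 8 genes none was of the first kind, and 4 (Kera, Epyc, Ecm2 and Omd) were of the second. Dcn alone had a start open in more epithelium than mesenchyme libraries, 3 against 2, a pattern of 6.53% of all starts. Lum, Aspn and Ogn had the reverse, with 1 against 2, 0 against 2 and 0 against 1, as had 7.62% of all starts.

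The regions of these genes were rich in repeats, a property the choice of genes did not use. Repeats were taken as the lower case letters of the genome file, and a region counted as repetitive where they made up more than 50% of its central 200 bp. This was so for 14 of the 30 regions (46.7%), beside 20.6% of all regions. Lum held 8 of the 14, and all 8 were repeat over the whole 200 bp, while Dcn had 1 such region among its 10. Of the 14 repetitive regions, 1 was found in more epithelium and 9 in more mesenchyme libraries. Of the other 16, 4 were found in more epithelium and 10 in more mesenchyme libraries. Over all regions, 21433 of 70636 repetitive ones (30.3%) and 81234 of 272054 others (29.9%) were found in more mesenchyme libraries. In more epithelium libraries there were 17489 repetitive and 67040 other regions. Whether reads in such stretches were placed uniquely was not tested. Without peaks in repeats, the 8 genes had 10, 10 and 8 peaks in epithelium and 14, 16 and 18 in mesenchyme, and the ratio of scaled means was 0.609. Lum then had 0, 1 and 1 peaks in epithelium and 2, 2 and 2 in mesenchyme, and of the mesenchyme-only regions the 2 at chr10:97555644-97556446 and chr10:97650371-97650731 were left.

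**Figure D4:**
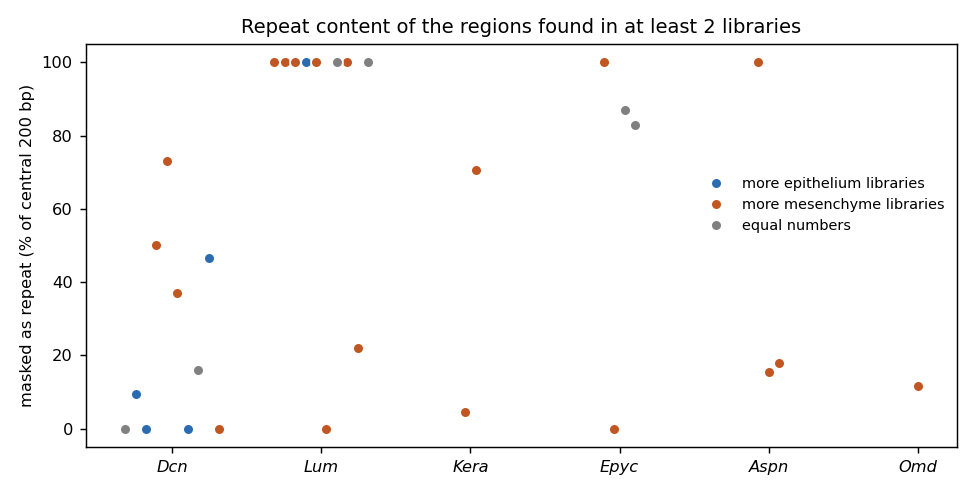
Share of the central 200 bp masked as repeat (y axis, percent) for each of the 30 regions found in at least 2 libraries, by gene; each point is a region, ordered along the chromosome within its gene and coloured by whether more epithelium (blue) or more mesenchyme libraries (orange) had a peak in it, or equal numbers (grey). Of the 10 Lum regions, 8 lie at 100%, whereas 9 of the 10 Dcn regions lie at 50% or less.

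The other members of the family lie elsewhere in the genome and had more peaks. None of the 9 passed the adjusted limma test. At an unadjusted p under 0.05 by limma 1, Nyx, was higher and none lower, where 6.27% of all genes were higher and 6.27% lower. Their median log2 difference was 0.00, with a range from -0.42 to 1.04. Bgn, which encodes biglycan, the nearest relative of decorin, had 8, 12 and 8 peaks in epithelium and 8, 6 and 8 in mesenchyme. Fmod and Prelp, of the lumican class, overlapped between the tissues, with log2 differences of -0.11 (SE 0.18) and -0.20 (SE 0.17). Optc, which encodes opticin of the epiphycan class, had 26, 31 and 28 peaks in epithelium and 34, 35 and 35 in mesenchyme, a log2 difference of -0.23 (SE 0.15). Nyx, whose product nyctalopin acts in the retina, had 14, 15 and 13 peaks in epithelium and 5, 7 and 8 in mesenchyme, a log2 difference of 1.04 (SE 0.24). Podn, which encodes podocan, had 11, 10 and 9 peaks in epithelium and 10, 17 and 17 in mesenchyme. The 9 genes held 181 regions found in at least 2 libraries. Of these, 2 were epithelium-only, both at Nyx, and 5 mesenchyme-only, 2 at Optc, 2 at Podn and 1 at Fmod. The shares over all regions were 2.98% epithelium-only and 2.20% mesenchyme-only.

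**Figure D5:**
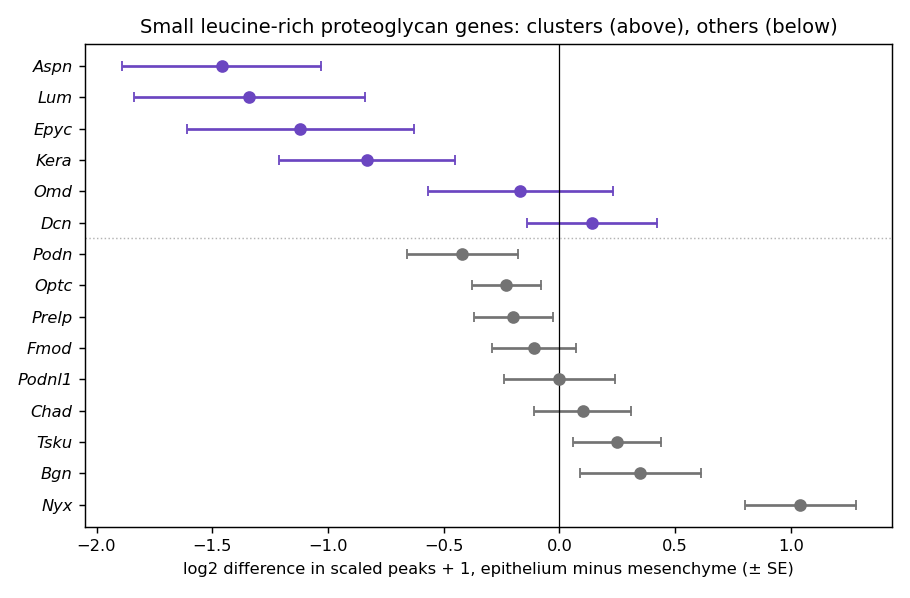
Log2 difference in scaled peaks + 1, epithelium minus mesenchyme (x axis), with its standard error, for the 6 cluster genes in the fit (purple, above the dotted line) and the 9 other family members (grey, below it). Cluster genes run from -1.46 at Aspn to 0.14 at Dcn, and the others from -0.42 at Podn to 1.04 at Nyx.

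Genes whose proteins work with these proteoglycans, the fibrillar collagens, TGF-β and BMP ligands and enzymes that process them, gave a median log2 difference of -0.01 over 13 genes. None passed the adjusted limma test. At an unadjusted p under 0.05 by limma none was higher and 1 was lower, where 6.27% of all genes were higher and 6.27% lower. Col11a1, a minor fibrillar collagen of cartilage, had 3, 4 and 5 peaks in epithelium and 7, 6 and 8 in mesenchyme, and Tgfb2 had 16, 19 and 18 in epithelium and 21, 25 and 25 in mesenchyme. In these 2 of the 13 genes every epithelium library was below every mesenchyme library, and none had the reverse. Over all genes this was so, in scaled peaks, for 9.16% and 7.64%. Col1a1, the main collagen chain of bone and skin, had 52, 43 and 41 peaks in epithelium and 49, 51 and 53 in mesenchyme, which overlapped. The genes beside the clusters overlapped between tissues too. Btg1 had 21, 38 and 18 peaks in epithelium and 25, 25 and 20 in mesenchyme. Ccer1 had 2, 3 and 3 in epithelium and 5, 4 and 2 in mesenchyme. Tes3-ps had 0, 5 and 3 in epithelium and 5, 4 and 7 in mesenchyme, a log2 difference of -1.12 (SE 0.5). The difference was -0.47 at Cenpp, -0.37 at Gm5426, -0.27 at Ippk, -0.26 at Ccer1, -0.03 at C030005K15Rik and 0.12 at Btg1. Nol8 was not in the fit.

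Likeness to the sum of the 8 genes was taken as the Pearson r of log2(scaled peaks + 1) over the 6 libraries. Among 13649 genes with a mean of at least 5 scaled peaks, the most alike were Fkbp6 (r = 0.994), Epn2 (0.990), Slc4a8 (0.988), 6030468B19Rik (0.986) and Cmtm3 (0.985). Fkbp6 had 4, 5 and 6 peaks in epithelium and 10, 11 and 16 in mesenchyme. These correlations rest on 6 points that share their libraries and are the highest of many, so they describe likeness in these lists only.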

How the data were processed

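Reads were trimmed by the authors with Trimmomatic 0.38, mapped to mm10 with Bowtie2 and handled with SAMtools and deepTools 2.0, per the study's methods and the labels; fragments under 100 bp were kept, and MACS2 2.1.1 called the peaks of each library alone, at a threshold not given in the sources used here. The deposited lists hold peak positions and no other value (no height, fold or score), so the depth in reads is unknown and an absent peak may be a weak one. The study compared reads with DiffBind, which position lists do not allow. The number of value columns left out was 0.

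Genes and start sites came from GENCODE M21 (principal transcripts). Peaks per gene, scaled to the mean list length, were fitted as log2(peaks + 1) with limma 3.58.1 in R 4.3.3 (mean trend, no replicate block, Benjamini-Hochberg adjustment), which understates changes of genes with few peaks. The fit was tested on simulated data. Nothing in the labels ties libraries to separate litters, so p-values measure the spread between these libraries. Regions were peaks merged at an overlap of 1 bp. Promoters were matched for 6 of the 8 genes, without Dcn and Lum. Proteins were not analysed here.

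The 8 genes and all lists were chosen with earlier results of these data known. The rule for named genes took the 8, the rest of the family, partners, 2 neighbours on each side and the 5 most alike, of which examples are given, and every tissue-only region and region open in all 6.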

Additional observations from a re-analysis of the deposited data

How the results depend on the processing

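Leaving out a library, other scaling, pseudocounts, windows, start sites and peak filters were tried where they apply (genes under the minimum in a setting gave no value), and counting to the nearest start among the 8 genes and leaving out repeats were added after seeing the data. Of 91 member log2 differences under an alternative, 88 moved by less than 1 SD (the SD between libraries in the main fit). Among these 88, 3 changed sign (Dcn in 2, Omd in 1), and limma called none of the 85 it was fitted to. Dropping the filter on low values or adding the replicate block cannot change a difference, so the 88 include values that were fixed beforehand.

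Limma's counts over all genes depended on the setting: against 58 genes higher and 19 lower in epithelium, it called 0 and 0 without scaling, 26 and 8 within 50 kb, 426 and 222 by kb covered, 25 and 4 with peaks of at least 300 bp, 53 and 9 without repeat-masked peaks, and 41 and 11 with a pseudocount of 0.5. Leaving out each library gave 0 to 45 higher and 0 to 4 lower. With the replicate block the counts were 0 and 0. Deviations of same-numbered libraries correlated at 0.017, 0.025 and -0.004 across genes, and those of the other pairs at -0.033 to 0.013. Such small values cannot show whether libraries of the same number came from the same embryos, which the labels do not state.

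The ratio of scaled means over the 8 genes was 0.546 within 50 kb, and 0.616 to 0.709 with a library left out. For the chromosome 10 cluster it was 0.571 within 50 kb, 0.769 without repeat-masked peaks and 0.668 to 0.748 with a library left out; for the chromosome 13 cluster 0.202 with peaks of at least 300 bp, 0.223 without repeat-masked peaks, 0.281 to 0.572 with a library left out and 0.702 with the nearest start among the 8 genes, where the tissues overlapped, as they did without scaling. Mesenchyme-only regions numbered 5 when 1 epithelium library was allowed. With a library left out there were 1 to 2 epithelium-only and 3 to 7 mesenchyme-only regions, 5 without mesenchyme replicate 1 and 7 without mesenchyme replicate 2. Allowing a library of the other tissue or leaving a library out loosens the definition of a tissue-only region, so these counts could only stay equal or rise. The cause of the moves in the ratios was not tested. With 1 to 7 peaks per library in the chromosome 13 cluster, a single peak moves its ratio.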
